A study of Mus musculus with 6 samples.

Results

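The lysosome and cathepsin genes are a fixed set of 30 genes that encode enzymes and membrane proteins of the lysosome, chosen by symbol from 32285 genes in the deposited matrices. All 30 were found, each under 1 Ensembl identifier. They comprise 6 cysteine cathepsins (Ctsb, Ctsc, Ctsh, Ctsl, Ctss, Ctsz), 4 other peptidases (Ctsa, Ctsd, Lgmn, Tpp1), 6 glycosidases (Gusb, Hexa, Glb1, Gla, Man2b1, Neu1), 8 lipid-handling proteins and cofactors (Psap, Npc1, Npc2, Lipa, Ppt1, Asah1, Gm2a, Grn) and 6 membrane proteins (Lamp1, Lamp2, Cd63, Cd68, Scarb2, Laptm5). They were measured by droplet single-cell RNA sequencing in LSK cells, the lineage-negative, cKit-positive and Sca1-positive fraction of bone marrow that holds hematopoietic stem and progenitor cells (HSPCs). The AML recipients were female C57BL/6J CD45.1 mice of 8 to 12 weeks that had received 1000000 cells of C1498, a murine acute myeloid leukemia (AML) line that carries CD45.2. The control recipients carried the same strain and allele labels and had received PBS. The design text gives sex and age once, and both were read as holding for the 2 groups. None had been conditioned, and all were sacrificed at day 21. The sorted cells were CD45.1+, so that they were the host's own HSPCs, and C1498 is a single line. Each group had 3 libraries.

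Lysosomes degrade proteins, glycans and lipids that reach them by endocytosis or autophagy. Cathepsins are proteases that are made as inactive precursors and mature in the acid lumen, where glycosidases and lipid hydrolases act beside them, while LAMP proteins and tetraspanins such as CD63 line the membrane. In blood-forming tissue, lysosomal genes are best known from monocytes, macrophages and neutrophils, and lysosome activity is also a known regulator of quiescence in hematopoietic stem cells. CD63 in addition marks late endosomes and the small vesicles that they release. Many lysosomal genes carry a palindromic element around the core CACGTG near their start, the CLEAR element, which the transcription factors TFEB and TFE3 bind.

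The promoter windows of the members were searched for GTCACGTG, an 8-base string from that element, on both strands. The genes were chosen by symbol, but the element is known from lysosomal genes, so that a share above that of all genes is not an independent result. RefSeq promoter windows of GRCm38.p6, each from 250 bases before to 50 bases after the gene start, were found for 26 of the 30 members, and 4 (Ctsb, Ctsh, Npc1, Asah1) had no entry. Of these 26, 6 members or 23.1% held GTCACGTG, as did 689 of all 27025 genes with a window (2.55%). Its core CACGTG, which lies within the longer string, was present in 7 members (26.9%) and in 8.09% of all genes, and the additional member was Ctsl. The 30 bases around 1 match per gene are shown 5′ to 3′ on the strand of the gene, in lower case with the match in capitals, which reads CACGTGAC where it lies on the opposite strand.
Ctsa: atgagcaaactGTCACGTGatgcagatgct
Ctsd: cgcccgcgtctCACGTGACccgttgagggc
Lgmn: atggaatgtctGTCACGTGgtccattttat
Glb1: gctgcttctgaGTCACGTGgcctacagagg
Gla: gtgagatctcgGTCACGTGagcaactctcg
Lamp1: atgccgactggCACGTGACcacatcacgtg
The Ctsa window is chr2:164833748-164833777 on the plus strand and its match begins 14 bases before the gene start. The Ctsd window is chr7:142387907-142387936 on the minus strand, 98 bases before the start. The Lgmn window is chr12:102439125-102439154 on the minus strand, 51 bases before the start. The Glb1 window is chr9:114401017-114401046 on the plus strand, 50 bases before the start. The Gla window is chrX:134601183-134601212 on the minus strand, 196 bases before the start. The Lamp1 window is chr8:13159122-13159151 on the plus strand, 28 bases before the start. Ctsa and Ctsd each held a further match. A match is a description of the letters and was not tested for binding. Over all LSK cells, the log2 fold changes between AML and PBS of these 6 members ran from -0.36 to 0.66 with a median of 0.10, and those of the 20 members whose windows lacked the string ran from -1.07 to 0.48 with a median of 0.07.

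The authors' cell table holds 16822 cells, and they come from 5 of the 6 libraries. PBS replicates 1, 2 and 3 contribute 6838, 934 and 4398 cells, AML replicates 1 and 3 contribute 693 and 3959 cells, and AML replicate 2 contributes 0, so that 3 PBS libraries were compared with 2 AML libraries. The kept cells carried from 1945659 UMIs (AML replicate 1) to 32123508 UMIs (PBS replicate 1), with medians of 2393 to 9586 UMIs per cell. AML replicate 1 stood apart: its log2 CPM profile correlated with those of the other libraries at r = 0.916 to 0.942 across genes, against 0.972 to 0.984 among the others. Pairs of libraries shared between 0 and 12 cell barcodes. The LSK markers Kit, Ly6a, Cd34 and Ptprc were detected in every library. UMIs were summed over the cells of a library, and in the sum over all LSK cells a lower level can come from fewer cells of a kind or from less RNA per cell, which cannot be told apart in that sum. Sums within the authors' classes and clusters are therefore given as well.

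Over all LSK cells the question was whether lysosomal transcripts differed between HSPCs of leukemic and of control marrow. All 30 members were detected in each of the 5 libraries and all passed the filter on low counts. With edgeR's quasi-likelihood test and Benjamini-Hochberg adjustment over 14364 genes, 0 of 30 members passed an adjusted p of 0.05, beside 23 genes in all (0.16%). At an unadjusted p under 0.05 there were 3 members, Cd63, Ctsl and Scarb2, where 10.5% of all genes passed. Complete separation upward, with AML replicates 1 and 3 over all PBS values, was seen for 3 members (Ctsz, Gla and Scarb2), as they did for 14.6% of all genes, and downward for 2 members (Cd63 and Ctsl), as they did for 17.4%. The fitted log2 fold change was above 0 for 16 members and below 0 for 14, with a median of 0.03, and the median of all genes was -0.03. The members together made up 1646, 1627 and 1245 CPM (UMIs per 1000000 UMIs of the plain total) in PBS replicates 1, 2 and 3, and 1306 and 1583 CPM in AML replicates 1 and 3, so that the AML libraries lay within the range of the PBS libraries.

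**Figure D1:**
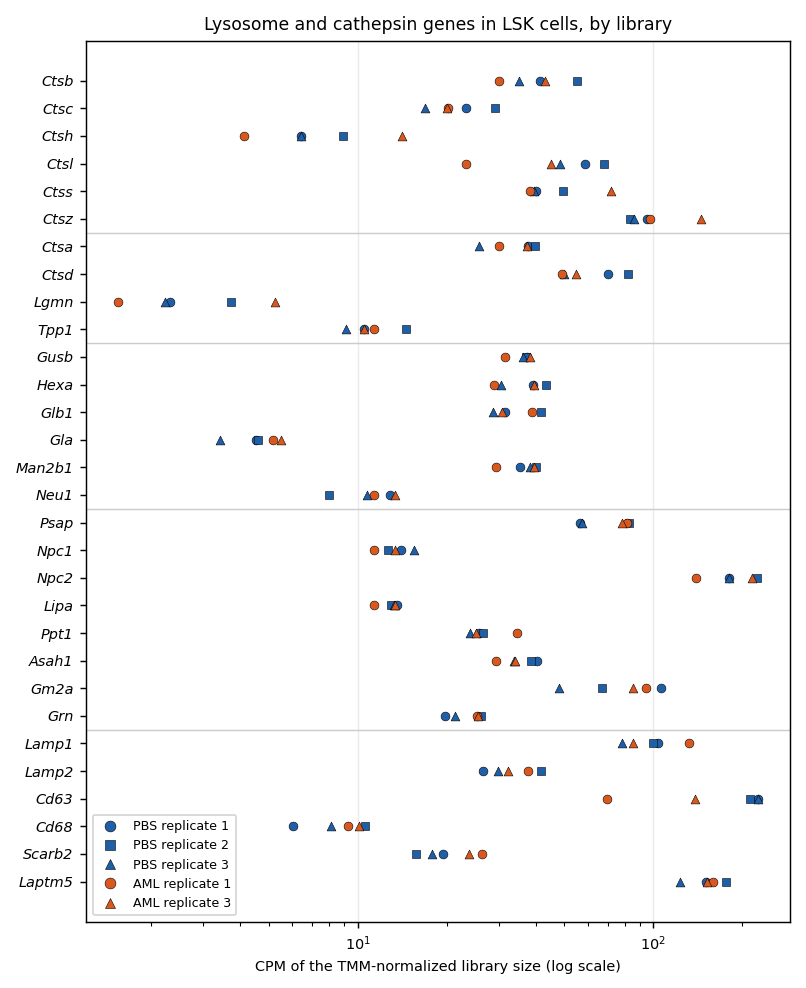
Level of each of the 30 members in the 5 libraries, in CPM of the TMM-normalized library size on a log axis; genes are grouped by role from cysteine cathepsins at the top to membrane proteins at the bottom. Blue symbols are PBS and orange symbols AML, and for Cd63 the AML libraries at 69.7 and 139 CPM lie left of PBS libraries at 213 to 227 CPM.

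Cd63, the tetraspanin of late endosomes and lysosomes, had the lowest p among the membrane proteins and among all members. Its level was 226, 213 and 227 CPM in PBS replicates 1, 2 and 3, and 69.7 and 139 CPM in AML replicates 1 and 3 (CPM of the TMM-normalized library size, here and below unless the plain total is named). The PBS libraries lay close together at 222 ± 7.61 CPM (SD, n = 3), the AML libraries apart at 104 ± 48.8 CPM (SD, n = 2), and the groups did not overlap. The log2 fold change was -1.07 ± 0.29 (SE), with an edgeR adjusted p of 0.219. Without AML replicate 3 the fold change was -1.67 with an edgeR adjusted p of 0.0181, and without AML replicate 1 it was -0.66 with an edgeR adjusted p of 0.957. Without AML replicate 3 there were 419 of 14185 genes called in all. Cd63 also passed with DESeq2 (DESeq2 adjusted p = 0.0331), which called 79 of 14364 genes, and without the filter on low counts (edgeR adjusted p = 0.0112), where 392 of 21591 genes were called.

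Scarb2, a membrane protein that carries glucocerebrosidase to the lysosome, was at 19.5, 15.7 and 17.9 CPM after PBS and at 26.3 and 23.7 CPM in AML replicates 1 and 3. Both AML libraries were above all PBS libraries, with a log2 fold change of 0.48 ± 0.22 (SE) and an edgeR adjusted p of 0.463. Among the other membrane proteins, Lamp1, Lamp2, Cd68, a marker of macrophage lysosomes, and Laptm5, a transmembrane protein of hematopoietic lysosomes, had overlapping groups and fold changes above 0. In this role 5 members had positive and 1 negative fold changes, with a median of 0.14.

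Among the cysteine cathepsins, Ctsl, an endopeptidase, was at 58.6, 68.2 and 48.5 CPM after PBS and at 23.2 and 45.2 CPM in AML replicates 1 and 3. The groups did not overlap, but AML replicate 3 lay close to the lowest PBS library. The log2 fold change was -0.70 ± 0.28 (SE), with an edgeR adjusted p of 0.411, and without AML replicate 3 it was -1.33 with an edgeR adjusted p of 0.0494. Without AML replicate 1 it was -0.35 with an edgeR adjusted p of 1.00. Ctsz, an exopeptidase that removes residues from the C-terminus, was at 95.3, 83.0 and 86.3 CPM after PBS and at 97.6 and 144 CPM in AML replicates 1 and 3. Only AML replicate 3 stood well above the PBS libraries, and the log2 fold change of 0.47 ± 0.24 (SE) had an edgeR adjusted p of 0.508 and was 0.15 without AML replicate 3.

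Ctsh, an aminopeptidase, was at 6.41, 8.90 and 6.41 CPM after PBS, at 4.13 CPM in AML replicate 1 and at 14.1 CPM in AML replicate 3. The AML libraries lay on either side of the PBS range, and the log2 fold change, 0.59 ± 0.34 (SE; edgeR adjusted p = 0.542), turned to -0.79 without AML replicate 3. Ctss, the endopeptidase that trims the invariant chain in antigen-presenting cells, was at 40.1, 49.4 and 39.4 CPM after PBS and at 38.2 and 71.8 CPM in AML replicates 1 and 3. Here too the AML libraries lay on either side, and the log2 fold change, 0.41 ± 0.26 (SE; edgeR adjusted p = 0.582), turned to -0.16 without AML replicate 3. The remaining cysteine cathepsins, Ctsb and Ctsc, had overlapping groups. The 6 cysteine cathepsins split into 3 positive and 3 negative fold changes.

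Of the other peptidases, Ctsd, the main aspartic protease of the lysosome, was at 70.1, 81.8 and 49.7 CPM after PBS and at 49.0 and 54.6 CPM in AML replicates 1 and 3, and the log2 fold change was -0.36 ± 0.25 (SE; edgeR adjusted p = 0.609). Lgmn, an asparaginyl endopeptidase that processes cathepsins, was low throughout, at 2.32, 3.72 and 2.23 CPM after PBS and at 1.55 and 5.27 CPM in AML replicates 1 and 3. It rested on 3 UMIs in AML replicate 1. Its log2 fold change was 0.66 ± 0.40 (SE; edgeR adjusted p = 0.560), and it turned to -0.78 without AML replicate 3. Neither gene separated the groups, and all 4 members of this role overlapped.

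Among the glycosidases, Gla, which removes terminal galactose from glycolipids, was at 4.52, 4.60 and 3.42 CPM after PBS and at 5.16 and 5.48 CPM in AML replicates 1 and 3. The AML libraries were above all PBS libraries, and the log2 fold change was 0.37 ± 0.30 (SE; edgeR adjusted p = 0.648). The other 5 glycosidases overlapped, and the role as a whole ran from -0.10 to 0.37 on the log2 scale. All 8 lipid-handling genes overlapped as well, within -0.23 to 0.29. In that role Psap, the precursor of the saposins, had the lowest p, at 56.3, 82.8 and 57.5 CPM after PBS against 81.6 and 78.0 CPM in AML replicates 1 and 3 (log2 fold change 0.29 ± 0.24 (SE), edgeR adjusted p = 0.664).

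A further 7 lists of lysosome and autophagy genes that hold none of the 30 members were read in the same fit, and 0 of their genes passed in any comparison over all LSK cells, the classes or the clusters, where 0.0325% to 0.522% of all genes did. The lists were other lysosomal hydrolases (29 of 30 genes tested, median log2 fold change -0.14), lysosomal membrane proteins and transporters (20 of 23, median 0.10), V-ATPase subunits (16 of 16, median -0.09), sorting to the lysosome (25 of 25, median 0.17), cystatins and other cathepsin inhibitors (6 of 12, median -0.23), lysosome regulators (21 of 21, median 0.02) and autophagy (21 of 21, median -0.16). The lowest p of each list belonged to Ctso, another cysteine cathepsin (-0.69 ± 0.24), Laptm4b, a relative of Laptm5 (-0.69 ± 0.25), the proton pump subunit Atp6v1f (-0.53 ± 0.27), Ap3s1, a subunit of the adaptor that sorts cargo to lysosomes (1.04 ± 0.25), Cst7, an inhibitor of cysteine cathepsins (0.74 ± 0.23), Tfe3 (0.73 ± 0.33) and Map1lc3b, which marks autophagosomes (-0.81 ± 0.28; log2 fold change ± SE). Their edgeR adjusted p ran from 0.153 for Ap3s1 to 0.511 for Atp6v1f.

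The cell table assigns every cell to a class, named HSC (hematopoietic stem cell), MPP2, MPP3 or MPP4 (multipotent progenitors with megakaryocyte and erythroid, myeloid and lymphoid bias). Because the authors assigned the classes and clusters from the expression of the same cells, the levels by class and cluster below are descriptions without a test. They are in CPM of the plain total of the class or cluster in a library. The HSC class was highest in each of the 5 libraries for 2 members, Cd63 and Asah1 (10.1% of all genes tested), and the MPP3 class for 3 members, Ctss, Ctsz and Cd68 (1.37% of all genes). The MPP2 class was highest in all 5 libraries for 0 members (3.03% of all genes), and so was the MPP4 class (3.06%). For the other 25 members no class was highest in all 5 libraries. The count of 5 members became 9 without AML replicate 1, 9 without AML replicate 3, 8 without PBS replicate 2 and 16 in the PBS libraries alone, and in the 23 HSCs of AML replicate 1 there were 9 members at 0 UMIs. Agreement over fewer libraries is easier to meet for any gene, and the share of all genes was not computed for these smaller sets. The place of Ctss rested on clusters 6, 7 and 8: without them the MPP4 class was highest in Ctss in all 5 libraries. That of Cd68 held without those clusters, but without cluster 4 MPP3 cells were highest in 4 of 5 libraries. Cd63, Asah1 and Ctsz kept their class in all 5 libraries under both exclusions. Across the 30 members the mean of the highest class exceeded that of the lowest by a median of 1.47-fold.

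**Figure D2:**
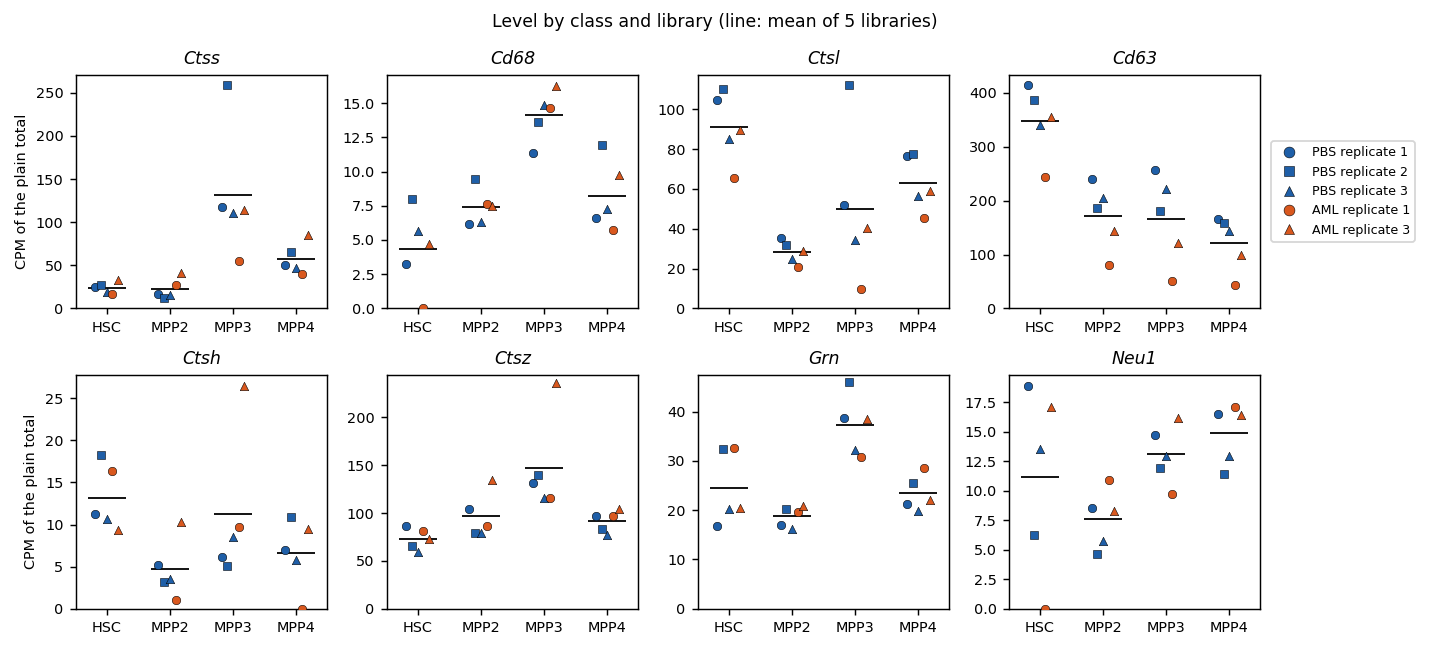
Level of the 8 members with the largest ratio of highest to lowest class among members with a mean of at least 5 CPM. Values are in CPM of the plain total, by class and library (blue PBS, orange AML, line the mean of 5 libraries). Ctss is highest in MPP3 cells with all clusters included, where PBS replicate 2 reaches 259 CPM (28.3 CPM without clusters 6, 7 and 8, against 64.9 CPM in its MPP4 cells), and Cd63 is highest in HSCs, at 245 to 415 CPM.

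Cd63 averaged 349 ± 65.0 CPM in HSCs, 171 ± 61.3 CPM in MPP2, 166 ± 81.8 CPM in MPP3 and 122 ± 51.2 CPM in MPP4 cells (SD over 5 libraries, both groups together). It ran from 245 to 415 CPM in HSCs and HSCs were above MPP2 cells without overlap, whereas HSCs and MPP3 cells, MPP2 and MPP3 cells, and MPP3 and MPP4 cells overlapped. Without clusters 6, 7 and 8 the mean was 211 CPM in MPP3 and 173 CPM in MPP2 cells. Ctss averaged 131 ± 75.8 CPM in MPP3, 57.5 ± 18.2 CPM in MPP4, 24.1 ± 6.65 CPM in HSCs and 22.4 ± 11.7 CPM in MPP2 cells. Its MPP3 level ran from 55.2 CPM in AML replicate 1 to 259 CPM in PBS replicate 2 and overlapped that of MPP4 cells, and HSCs and MPP2 cells overlapped too. Without clusters 6, 7 and 8 it averaged 43.1 ± 23.6 CPM in MPP3 and 57.5 ± 18.3 CPM in MPP4 cells, with overlapping ranges but MPP4 cells above MPP3 cells within each library. Ctsl averaged 90.9 ± 17.6 CPM in HSCs and 28.4 ± 5.82 CPM in MPP2 cells, with MPP3 and MPP4 cells between them, and each neighbouring pair of classes in that order overlapped.

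Cd68 averaged 14.1 ± 1.84 CPM in MPP3 cells and 4.31 ± 2.97 CPM in HSCs. It was highest in MPP3 cells in 5 of 5 libraries. Ctsz averaged 148 ± 50.3 CPM in MPP3 cells and 73.2 ± 11.2 CPM in HSCs, and AML replicate 3 was highest in MPP3 cells at 236 CPM. Grn, the progranulin gene, averaged 37.2 ± 6.01 CPM in MPP3 and 18.7 ± 2.10 CPM in MPP2 cells, and Neu1, a sialidase, 14.9 ± 2.54 CPM in MPP4 and 7.62 ± 2.49 CPM in MPP2 cells. Ctsh averaged 13.2 ± 3.86 CPM in HSCs and 4.66 ± 3.49 CPM in MPP2 cells. Its MPP3 level ran from 5.11 CPM (3 UMIs) in PBS replicate 2 to 26.5 CPM in AML replicate 3.

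By cluster, pooled over the 5 libraries, cluster 4 was the highest of the 9 clusters for 14 of the 30 members, where it was the highest for 6.63% of all genes tested. AML replicate 3 held 4118505 of the 7365104 UMIs of cluster 4. Library by library, cluster 4 was the highest in all 5 libraries for 2 of the 14 (Gusb and Npc2), in 4 for 3 (Hexa, Gm2a and Cd68), in 3 for 3 (Ctsh, Ctsz and Psap) and in 2 for 6 (Ctsa, Gla, Ppt1, Asah1, Grn and Lamp1), and the smallest clusters of AML replicate 1 held few cells, such as 5 in cluster 8. Cluster 4 held 826 cells and the members made up 2079 CPM in it, against 785 to 1580 CPM in the other clusters. Of the class marker lists it was the MPP3 list that stood out in cluster 4, at 6561 CPM against 275 to 1765 CPM in the other clusters. Mast cell and basophil markers summed to 351 CPM there and to 1.62 to 122 CPM elsewhere, and those of monocytes and macrophages to 361 CPM against 26.1 to 153 CPM. Over all LSK cells the 14 monocyte and macrophage markers summed to 105 to 153 CPM in the PBS libraries and to 115 and 147 CPM in AML replicates 1 and 3, where 4 of the 14 were at 0 in AML replicate 1. Lyz2, the lysozyme gene of myeloid cells, made up 85.9, 128 and 66.2 CPM of that in PBS replicates 1, 2 and 3, and less, 42.1 and 57.3 CPM, in AML replicates 1 and 3. Without Lyz2 the sum of the list was higher in both AML libraries than in each PBS library. The macrophage genes C1qa, C1qb, C1qc and Adgre1 were each at 7.08 CPM or less in every library. The part of these markers in the levels of the members was not tested.

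In cluster 4, Ctsh reached 42.2 CPM against 10.2 CPM in the next cluster, Ctsz 275 CPM against 134 CPM, Cd68 24.2 CPM against 9.82 CPM, Hexa, a subunit of beta-hexosaminidase, 70.9 CPM against 38.8 CPM, and Psap 137 CPM against 81.5 CPM. PBS replicate 2, with 23 cells in cluster 4, held Ctsh at only 2.93 CPM there, while the other 4 libraries held it at 26.4 to 53.9 CPM. The PBS replicate 2 value came from 1 UMI. In PBS replicate 2 Psap was lower in cluster 4 than in cluster 2 (61.5 CPM from 21 UMIs against 112 CPM from 232 UMIs), and Ctsz was at 126 CPM from 43 UMIs in cluster 4 and at 132 CPM from 31 UMIs in cluster 6. In AML replicate 1 each of these 5 genes had a higher value in another cluster than in cluster 4, where they rested on 2 to 44 UMIs, and Ctsh in cluster 5 and Cd68 in cluster 8 were 1 UMI each, so that their order was not resolved at this depth. Cluster 6 was highest for Ctss, at 536 CPM against 94.0 CPM in cluster 4, in all 5 libraries (447 to 678 CPM), and for Lgmn, at 13.5 CPM from 25 UMIs, in 3 of 5 libraries, with 0 UMIs in AML replicate 1. The 177 cells of cluster 6 carried B and plasma cell markers at 49035 CPM, where the other clusters had 88.4 to 448 CPM, and erythroid markers at 5554 CPM, where cluster 7 had 4909 CPM and the others 16.0 to 228 CPM. Scarb2 was highest in cluster 8, at 43.2 CPM from 22 UMIs, in 3 of 5 libraries.

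**Figure D3:**
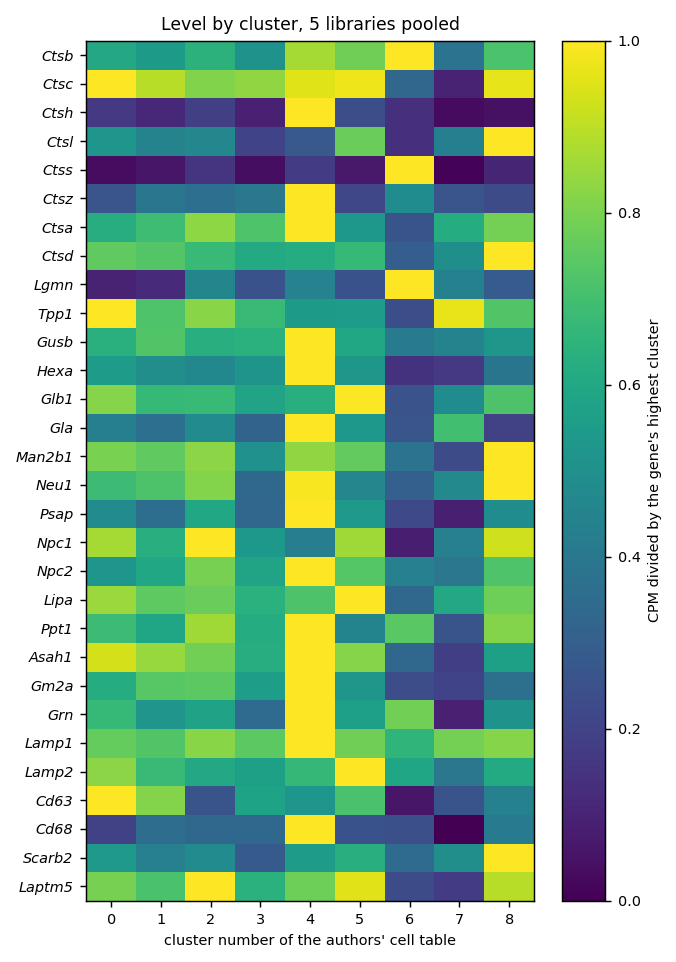
Level of each member in the 9 clusters of the authors' table, pooled over 5 libraries and divided by the gene's highest cluster, so that 1 marks the highest cluster of each row. Cluster 4 is the highest for 14 members and cluster 6 for Ctss, which reaches 536 CPM there.

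The mix of cells differed between the groups beside these levels. Cluster 4 made up 2.88%, 2.46% and 3.41% of the cells of PBS replicates 1, 2 and 3, and 11.1% and 9.57% of those of AML replicates 1 and 3. The MPP3 class made up 11.6%, 4.39% and 9.60% in the PBS libraries and 32.9% and 22.3% in the AML libraries, and the HSC class 20.5%, 23.9% and 21.9% against 3.32% and 13.7%. Ctsz and Ctsh, both high in cluster 4, moved from log2 fold changes of 0.47 and 0.59 over all LSK cells to 0.22 and -0.17 without cluster 4. Cd63 moved from -1.07 to -0.99 without cluster 4 and to -0.85 when the 4 classes were given equal weight in every library.

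Within classes the comparison asks whether the members differed between AML and PBS once cells of 1 class were set against cells of the same class. The number of members that passed was 0 in each class, with 29 members tested in HSCs, where Lgmn was too low, and 30 in each of the others. Of all genes, 0.178% passed in HSCs, 0.0399% in MPP2, 0.0486% in MPP3 and 0.0325% in MPP4 cells. At an unadjusted p under 0.05 there were 0, 4, 4 and 2 members in the same order, beside 4.16%, 7.56%, 7.39% and 5.93% of all genes. AML replicate 1 had 23 HSCs with 61292 UMIs, which limits what that class can show.

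Cd63 was lower in both AML libraries than in every PBS library in all 4 classes. In HSCs it was at 415, 429 and 389 CPM after PBS and at 203 and 350 CPM in AML replicates 1 and 3 (log2 fold change -0.44 ± 0.30 (SE), edgeR adjusted p = 0.992). In MPP2 cells it was at 225, 194 and 221 CPM against 78.5 and 141 CPM (-0.92 ± 0.29 (SE), edgeR adjusted p = 0.437). In MPP3 cells it was at 222, 234 and 236 CPM against 46.7 and 113 CPM (-1.46 ± 0.35 (SE), edgeR adjusted p = 0.148). In MPP4 cells it was at 157, 166 and 158 CPM against 40.4 and 96.2 CPM (-1.05 ± 0.27 (SE), edgeR adjusted p = 0.222). Leaving out AML replicate 1 or 3 moved these fold changes between -0.23 and -1.05 in HSCs, -0.59 and -1.44 in MPP2, -1.01 and -2.31 in MPP3, and -0.74 and -2.01 in MPP4 cells. In HSCs without AML replicate 3 the median of all genes was itself -0.50, against -0.03 in the main fit. No other member was separated in the same direction in all 4 classes. Scarb2 came closest, with both AML libraries above in 3 classes, and in 4 of the 5 clusters tested. The same libraries enter each class, and the share of all genes separated within classes was not computed.

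In MPP2 cells Ctss was at 16.0, 12.4 and 16.4 CPM after PBS and at 26.5 and 39.9 CPM in AML replicates 1 and 3. The groups did not overlap, and the log2 fold change of 1.21 ± 0.25 (SE) had an edgeR adjusted p of 0.1004. In MPP3 cells the groups overlapped in Ctss, at 101, 336 and 117 CPM against 51.2 and 106 CPM, and the fold change was below 0 (-1.11 ± 0.44 (SE), edgeR adjusted p = 0.552). PBS replicate 2 stood out there, with 41 MPP3 cells, of which 12 were in cluster 6. Those 12 cells and 4 of cluster 8 held most of the Ctss of that class in PBS replicate 2: of 152 UMIs, 9 remained without clusters 6, 7 and 8. Without these clusters the plain-total Ctss level of MPP3 cells was 35.5, 28.3 and 37.1 CPM after PBS and 29.7 and 84.7 CPM in the AML libraries, and the log2 fold change turned to 0.90 (edgeR adjusted p = 0.464).

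Ctsh in MPP3 cells was at 5.32, 6.63 and 9.10 CPM after PBS and at 9.04 and 24.5 CPM in AML replicates 1 and 3. AML replicate 1 lay within the PBS range, on 6 UMIs, and the log2 fold change was 1.52 ± 0.40 (SE; edgeR adjusted p = 0.188). Without AML replicate 3 it was 0.38 (edgeR adjusted p = 0.817). Cluster 4 made up 13.9%, 24.4% and 21.3% of the MPP3 cells of the PBS libraries and 25.9% and 33.3% of those of AML replicates 1 and 3, and it was the largest cluster of the class in AML replicate 3 only. Without cluster 4 the fold change of Ctsh in MPP3 cells was 0.77 (edgeR adjusted p = 0.931). The second named member of HSCs was Ctsb, an abundant endopeptidase, at 43.2, 75.8 and 46.3 CPM against 27.0 and 42.5 CPM (-0.38 ± 0.30 (SE), edgeR adjusted p = 0.992), with 2 UMIs in AML replicate 1. It moved to -0.12 without PBS replicate 2 and to -1.02 without AML replicate 3, where the median of all genes was -0.50. The second named member of MPP4 cells was Lgmn, at 2.55, 3.999 and 2.73 CPM against 2.69 and 7.15 CPM (1.13 ± 0.44 (SE), edgeR adjusted p = 0.706), with 1 UMI in AML replicate 1, and it turned to -0.16 without AML replicate 3.

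**Figure D4:**
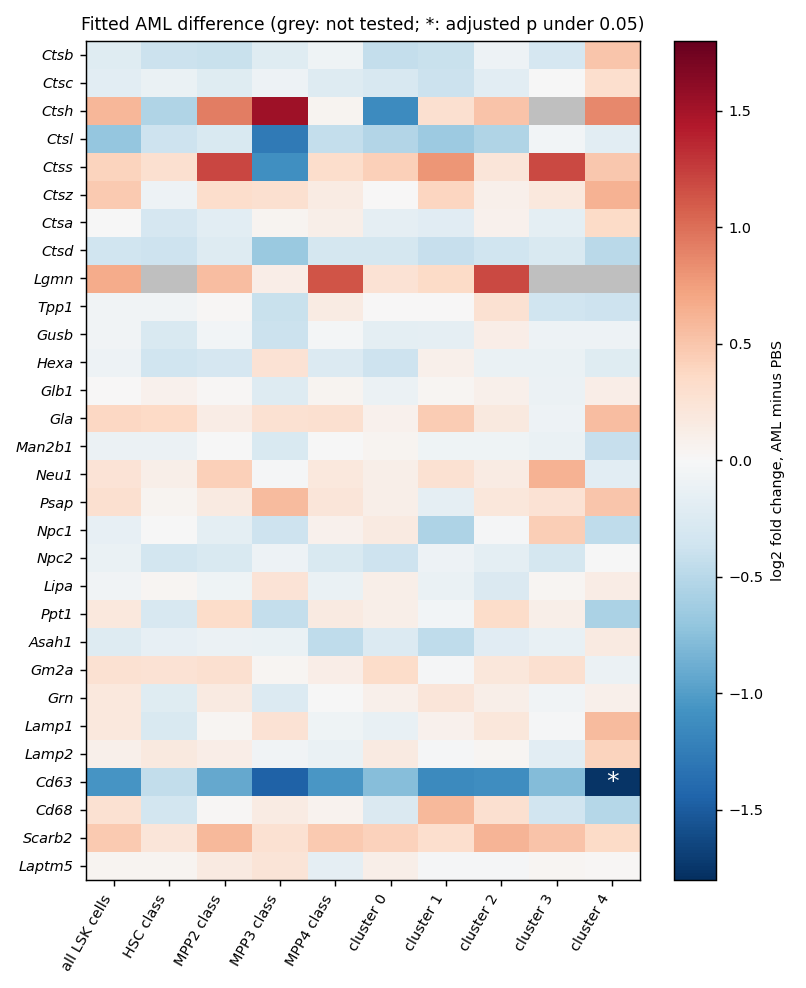
Fitted log2 fold change (AML minus PBS) of the 30 members over all LSK cells, in the 4 classes and in clusters 0 to 4; blue is lower and red higher in AML, grey was not tested and the star marks an adjusted p under 0.05. Cd63 is below 0 in all 10 comparisons and holds the only star, in cluster 4 at -1.77.

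Clusters 0 to 4 held enough cells in all 5 libraries to be compared. Cd63 in cluster 4 was the 1 member that passed, where 0.522% of all genes did. The number of members that passed was 0 in clusters 0, 1, 2 and 3, beside 0.0407%, 0.155%, 0.199% and 0.156% of all genes, and 2, 2, 3 and 2 members had an unadjusted p under 0.05 there, beside 8.44%, 7.67%, 5.85% and 4.2% of all genes. In cluster 4 it was 2 members, beside 5.34% of all genes. Cd63 in cluster 4 was at 213, 244 and 299 CPM after PBS and at 43.6 and 88.8 CPM in AML replicates 1 and 3. In AML replicate 1 the cluster held 77 cells with 226456 UMIs, and in PBS replicate 2 it held 23 cells. The mix of classes within the cluster was not equalized between libraries. The AML libraries lay far below the PBS libraries, with means of 252 ± 43.3 CPM (SD, n = 3) and 66.2 ± 31.9 CPM (SD, n = 2). The log2 fold change was -1.77 ± 0.35 (SE), with an edgeR adjusted p of 0.00456. Without PBS replicate 3 the edgeR adjusted p was 0.0590 and the fold change -1.62, without AML replicate 1 they were 0.0429 and -1.49, and without AML replicate 3 they were 0.00181 and -2.56.

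Cd63 was also below every PBS library in both AML libraries in clusters 0, 1, 2 and 3. The same libraries enter each cluster, and the share of all genes separated within clusters was not computed. In cluster 0 Cd63 was at 315, 305 and 299 CPM after PBS against 121 and 229 CPM in AML replicates 1 and 3. In cluster 1 it was at 251, 260 and 277 CPM against 43.8 and 177 CPM. In cluster 2 it was at 84.8, 96.8 and 86.9 CPM against 19.0 and 48.8 CPM, and in cluster 3 at 208, 167 and 189 CPM against 73.7 and 124 CPM. The log2 fold changes in these 4 clusters ran from -0.77 to -1.14, and AML replicate 1 was the lowest library in each of them. Leaving out AML replicate 1 or 3 moved them between -0.39 and -2.59, and without AML replicate 3 Cd63 also passed in clusters 1 and 2 (edgeR adjusted p = 0.00313 and 0.0267), where 496 of 11548 and 109 of 11581 genes were then called.

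**Figure D5:**
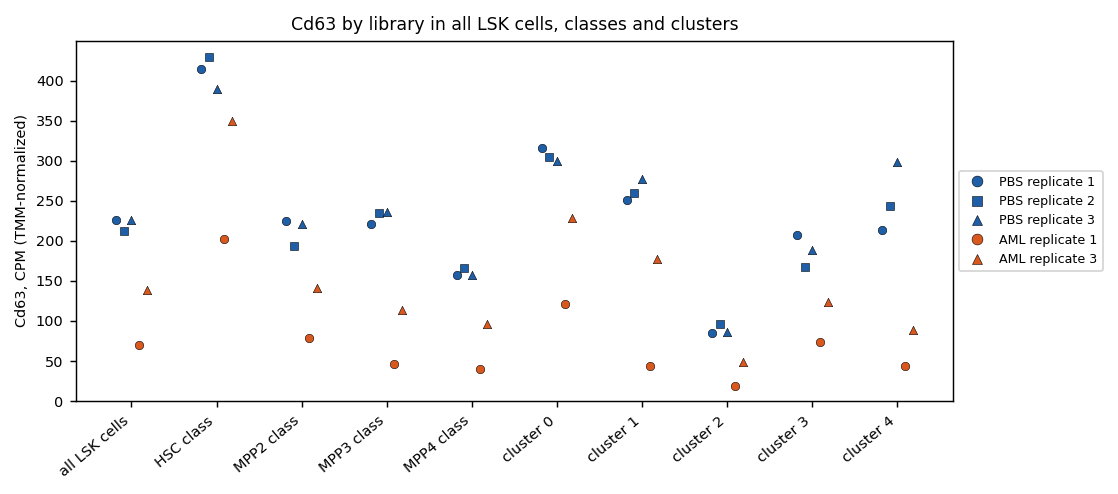
Cd63 in each library over all LSK cells, in the 4 classes and in clusters 0 to 4, in CPM of the TMM-normalized library size. In each comparison both orange AML symbols lie below the 3 blue PBS symbols, as at 43.6 and 88.8 CPM against 213 to 299 CPM in cluster 4.

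Of the other named members of the clusters, Ctss in cluster 3 was at 15.3, 12.4 and 15.0 CPM after PBS and at 34.0 and 32.7 CPM in AML replicates 1 and 3. Both AML libraries were above the PBS libraries and close to each other (log2 fold change 1.19 ± 0.31 (SE), edgeR adjusted p = 0.184). In cluster 1 Ctss overlapped between the groups, at 22.2, 34.8 and 19.96 CPM against 26.3 and 51.9 CPM (0.80 ± 0.31 (SE), edgeR adjusted p = 0.530), and without AML replicate 3 the fold change was 0.077. Ctsh in cluster 0 was at 7.33, 12.3 and 6.97 CPM after PBS and at 0 and 4.60 CPM in AML replicates 1 and 3, where AML replicate 1 had 0 UMIs (-1.13 ± 0.47 (SE), edgeR adjusted p = 0.558). Lgmn in cluster 2 was at 4.51, 3.04 and 4.43 CPM against 3.17 and 10.6 CPM (1.18 ± 0.43 (SE), edgeR adjusted p = 0.529), with 1 UMI in AML replicate 1, and it turned to -0.42 without AML replicate 3. Lgmn was not tested in clusters 3 and 4, nor Ctsh in cluster 3, because of low counts.

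Whether the AML difference varied between classes was tested in a single model that gave each library its own term and crossed treatment with class. All 30 members were tested and 3 passed, Ctss, Ctsh and Cd63, where 0.872% of 12734 genes passed. For Cd63 the AML difference was lower than that in HSCs by 0.36 in MPP2, 0.79 in MPP3 and 0.51 in MPP4 cells on the log2 scale (edgeR adjusted p = 0.0242). For Ctsh it was higher than in HSCs by 1.67, 2.31 and 0.76 in the same order (edgeR adjusted p = 0.00846). For Ctss it was 1.00 higher than in HSCs in MPP2 cells and 0.30 higher in MPP4 cells, while the MPP3 term was -0.67 (edgeR adjusted p = 0.000661).

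These differences between classes rested on few libraries and clusters. AML replicate 1 contributed 1 Ctsh UMI in HSCs, 1 in MPP2, 6 in MPP3 and 0 in MPP4 cells, and 15, 74, 31 and 15 Cd63 UMIs in the same order. Without AML replicate 1 the test called 5 members, Ctsz and Psap being the additional ones, with 89 of all genes called, and without AML replicate 3 it called 0, with 108 of all genes called. Without cluster 4 only Ctss passed (edgeR adjusted p = 0.00352), with 0.344 for Ctsh and 0.349 for Cd63, and 41 of all genes were called. Without clusters 6, 7 and 8 the edgeR adjusted p of Ctss was 0.0179 and its MPP3 term turned to 0.91, with Ctsh, Cd63 and Ctsz also passing among 233 of all genes. Without PBS replicate 1 and without PBS replicate 3, Cd63 did not pass (edgeR adjusted p = 0.0748 and 0.180).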

How the data were processed

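Libraries were made with 10x Genomics V3 chemistry. Per the file headers and the submitters' processing notes, the authors used Cell Ranger 7.0.1, Seurat 4.3.0 and R 4.2.2 with GRCm38 (mm10), and deposited UMI counts per gene and barcode, without normalization. Their cell table gives each cell's library, UMI count, class and cluster, and the UMI counts equalled the matrices for 16822 of 16822 cells. No source used here gives how the authors handled doublets and ambient RNA, and nothing was removed further.

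UMI counts of the table's cells were summed per library, and per class or cluster with at least 20 cells in a library. The library was the replicate. The labels do not say whether a library was 1 mouse or pooled mice, so that p-values measure the spread between libraries. AML replicate 2 has no cell in the table, so 3 PBS libraries were compared with 2 AML libraries in place of the planned 3 against 3. edgeR 4.0.16 under R 4.3.3 was used (filterByExpr, TMM, quasi-likelihood test, Benjamini-Hochberg adjustment over all genes tested, threshold 0.05); SE is the fold change divided by the root of F. The script was tested on simulated data. Class differences were an F test of 3 interaction terms. DESeq2 1.42.0, limma-voom 3.58.1 and other settings were alternatives. Leaving clusters 4 or 6, 7 and 8 out of the classes, class levels and class differences, and each library out of the class levels, was chosen after seeing the data. No counting intervals were computed, and values in CPM from few UMIs carry that counting error.

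The members and lists were chosen with earlier results of these data known. Named were the 10 members of lowest p over all LSK cells, members with adjusted p under 0.05 or else the 2 of lowest p in each class and cluster, the 8 members of largest class ratio with a mean of at least 5 CPM, members whose highest cluster exceeded the next by over 1.5 times, and the gene of lowest p in each pathway list. Further genes named were chosen after their values were seen.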

Additional observations from a re-analysis of the deposited data

Results flagged for a closer look

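For 3 members the AML difference itself differed between classes in the test of the class-by-treatment terms, with edgeR adjusted p of 0.000661 for Ctss, 0.00846 for Ctsh and 0.0242 for Cd63. Of all 12734 genes tested, 0.872% passed. Without cluster 4 Ctss was the only member that passed, and without clusters 6, 7 and 8 its MPP3 term turned from -0.67 to 0.91. AML replicate 2 has no cell in the authors' table and enters only the alternative fit of 6 libraries given below. Over all its 17055 barcodes the members summed to 1808 CPM of the plain total, above the 1259 to 1654 CPM of the PBS libraries. By the same measure AML replicates 1 and 3 were at 1185 and 1575 CPM. Laptm5 alone was at 441 CPM in AML replicate 2, against 160, 170 and 116 CPM in PBS replicates 1, 2 and 3. Restricted to the 106 barcodes of AML replicate 2 with at least 1000 genes and at most 10% mitochondrial UMIs, the members summed to 1634 CPM from 500 UMIs. That lay within the 1254 to 1650.5 CPM of the PBS libraries under the same filter. In those barcodes Cd63 was at 108 CPM, where PBS libraries had 225 to 257 CPM and AML replicates 1 and 3 had 81.2 and 156 CPM. A fit of all 6 libraries under that filter, run as an alternative over all LSK cells, called 0 members, with a Cd63 log2 fold change of -1.08 (edgeR adjusted p = 0.0526).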

How the results depend on the processing

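Over all LSK cells the count of members that passed, 0 with the settings reported, was 1 with DESeq2 (79 of all genes, against 23) and 1 without the filter on low counts (392 of all genes; both Cd63), and 0 to 2 when each library was left out in turn (the 2 being Cd63 and Ctsl without AML replicate 3, with 419 of all genes). In MPP2 cells it was 1 without the filter (Ctss, with 156 of all genes against 5), and leaving out each library gave 0. In MPP3 cells it was 3 without the filter, 1 with library size only and 0 to 1 leaving out each library (166, 84 and up to 69 of all genes, against 5). In MPP4 cells it was 1 without the filter and 0 to 1 leaving out each library (75 and up to 34 of all genes, against 4), and the replicate block on the shared numbers 1 and 3 gave 1 (Cd63, edgeR adjusted p = 0.0398, with 39 of all genes). The block fits also left out PBS replicate 2, because AML replicate 2 has no kept cells. They gave 0 over all LSK cells and in the other classes. The shared numbers did not pair the libraries (correlation of deviations -0.07). In HSCs each alternative gave 0. Within clusters the only member called was Cd63, and the number of clusters in which it passed, 1, ranged from 0 (without PBS replicate 3) to 3 (without AML replicate 3). The count of members whose AML difference varied between classes, 3, was 6 without the filter (506 of all genes, against 111), 1 without cluster 4 (added after seeing the data) and 0 to 5 leaving out each library. The count of members with the same highest class in every library, 5, was 3 after thinning each cell to 2000 UMIs, 16 in the 3 PBS libraries alone, 9 without clusters 6, 7 and 8, 8 without cluster 4 and 6 to 9 leaving out each library. Fewer libraries make such agreement easier for any gene, and the share of all genes was not computed for these settings. Fold changes turned without AML replicate 3 to -0.16 for Lgmn in MPP4 cells, -0.42 for Lgmn in cluster 2, and over all LSK cells to -0.79 for Ctsh, -0.78 for Lgmn and -0.16 for Ctss; Ctsh over all LSK cells turned to -0.17 without cluster 4, and Ctss to -0.37 with equal class weights. When each library was left out in turn, the highest values of these were 1.31, 1.34, 0.99, 0.99 and 0.76. The cause of these changes was not tested. Cd63 kept a negative fold change in all 98 fits of the alternatives over all LSK cells, classes and clusters, from -2.59 to -0.23. These fits reuse the same libraries and overlapping cells, so that they are not independent of each other. Library size in place of TMM moved the median of all genes to 0.12 in HSCs and 0.11 in MPP3 cells. Without AML replicate 3 that median was -0.50 in HSCs and -0.19 in cluster 3. Leaving out an AML library leaves 1, which is taken to vary like the PBS libraries.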
